A study of Mus musculus with 6 samples.

Results

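The insulin-like growth factor (IGF) system was examined through 10 genes of its core, chosen by name: the ligands *Igf1* and *Igf2*, the receptors *Igf1r* and *Igf2r*, and the binding proteins *Igfbp2* to *Igfbp7*. All 10 were among the 28987 genes of the expression table, and 9 of them were among the 15109 genes tested. RNA-seq had been carried out on EGFP+ cells sorted from mouse hearts 4 weeks after transaortic coarctation (TAC), an operation that constricts the aorta and overloads the left ventricle. Every animal carried MerCreMer, a Cre recombinase switched on by tamoxifen, in the *Postn* locus, and a Cre-dependent EGFP reporter in the *Rosa26* locus. The 3 control libraries came from mice for which the labels name no further allele. The 3 libraries labelled Hsp47-deleted came from mice that were also Hsp47 flox/flox; Hsp47, encoded by *Serpinh1*, is the collagen chaperone of the endoplasmic reticulum. All mice had TAC between 8 and 10 weeks of age and received tamoxifen, which the labels put at 100 mg/kg intraperitoneally with chow at 40 mg/kg (the methods of the study give other doses). Cre follows *Postn* and the reporter needs Cre, so the sort is aimed at cells that have switched *Postn* on. No library from an unoperated heart was analysed here. The labels do not say whether a library is 1 mouse or a pool.

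IGF-I and IGF-II are secreted peptides that act through the tyrosine kinase encoded by *Igf1r*, and from there through the insulin receptor substrates, PI3 kinase and AKT, which restrain the FoxO transcription factors. The product of *Igf2r*, also called the cation-independent mannose 6-phosphate receptor, has no kinase: it takes IGF-II from the cell surface to the lysosome and sorts newly made lysosomal enzymes. The IGF binding proteins hold the ligands outside the cell and are cleaved by secreted proteases. In the heart, fibroblasts are a known source of IGF-I.

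The samples' titles place control replicates 3 and 4 in run1739, and control replicate 2 together with all 3 Hsp47-deleted replicates in run2675. In these data control replicate 2 lay above both controls of run1739 at 46.4% of the genes tested and at 9 of the 10 IGF genes, every one but *Igfbp7*. Comparisons are therefore given over all 6 libraries and, for the IGF genes and most other genes described, again with run as a covariate, which sets the 3 Hsp47-deleted libraries against control replicate 2. Values are on the deposited log2(value + 1) scale, listed for control replicates 3, 4 and 2 and then for Hsp47-deleted replicates 1, 2 and 3.

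*Serpinh1* read 6.28, 6.10 and 7.60 in the controls and 6.87, 6.67 and 6.66 in the libraries labelled Hsp47-deleted. The groups overlapped, and the libraries labelled Hsp47-deleted lay 0.87 below control replicate 2 but above both controls of run1739. In sorted EGFP+ cells of this genotype, the study reported by Western blot that Hsp47 was efficiently deleted. That was a measure of protein, whereas the values here are RNA of the gene as a whole. *Postn*, the gene whose locus drives Cre, stood at 57.3, 56.9 and 68.5 in the linear unit in the controls. In the Hsp47-deleted libraries it stood at 1188, 1451 and 1317 (log2 difference 4.41, SE 0.28, limma adjusted p = 0.00337, and 4.24 with run as a covariate). Of 10 fibroblast markers, all were detected, with a summed linear value of 8075 to 11013 in the controls and 12617 to 14380 in the Hsp47-deleted libraries. Most of this sum was *Dcn*, at 5090 to 7401 in the controls and 7755 to 8636 in the Hsp47-deleted libraries. Only *Dcn*, *Col1a2*, *Tcf21* and *Postn* were higher without overlap, and the other fibroblast markers overlapped between the groups. The leukocyte list summed to 48.0 to 168.8 in the controls and 157 to 198 in the Hsp47-deleted libraries, with *Ptprc* at 0 in all 6 and 7 of its 9 measured genes tested. The 10 endothelial markers summed to 99.2 to 285.6 and 185 to 271. The 10 cardiomyocyte markers summed to 52.7 to 286.5 and 180 to 294. The 10 mural markers summed to 176 to 300 and 140 to 213, the 4 erythroid genes measured to 13.3 to 342 and 81.1 to 137, the 6 mesothelial markers to 1.37 to 6.32 and 3.48 to 11.2, and the 5 Schwann cell markers to 4.23 to 8.43 and 8.35 to 9.18. Control replicate 2 was the highest control in every one of these lists, the fibroblast list included, but the mural one. Endothelial, mural and blood cells also express genes of the IGF system, and the part of such cells in the values below was not tested. In sorted bulk samples, fewer cells of a type and less RNA per cell cannot be told apart.

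The receptor *Igf2r* and the binding proteins *Igfbp6* and *Igfbp3* stood furthest above the controls, followed by *Igf1r*. These 4 genes had no overlap between the groups. The ligands, *Igfbp4*, *Igfbp5* and *Igfbp7* differed by at most 0.36 on the log2 scale, with overlapping libraries. No IGF gene reached an adjusted p under 0.05 (0 of 9 tested, where 0.245% of all genes did). At an unadjusted limma p under 0.05, 4 of 9 were higher, where 14.5% of all genes were, and 0 of 9 were lower, where 0.755% of all genes were. Groups without overlap, with the Hsp47-deleted libraries higher, were seen at the same 4 of 9 genes and at 18.3% of all genes. With 3 libraries against 3, the exact permutation test of a single gene cannot give a two-sided p below 0.10, the value for each of the 4.

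**Figure D1:**
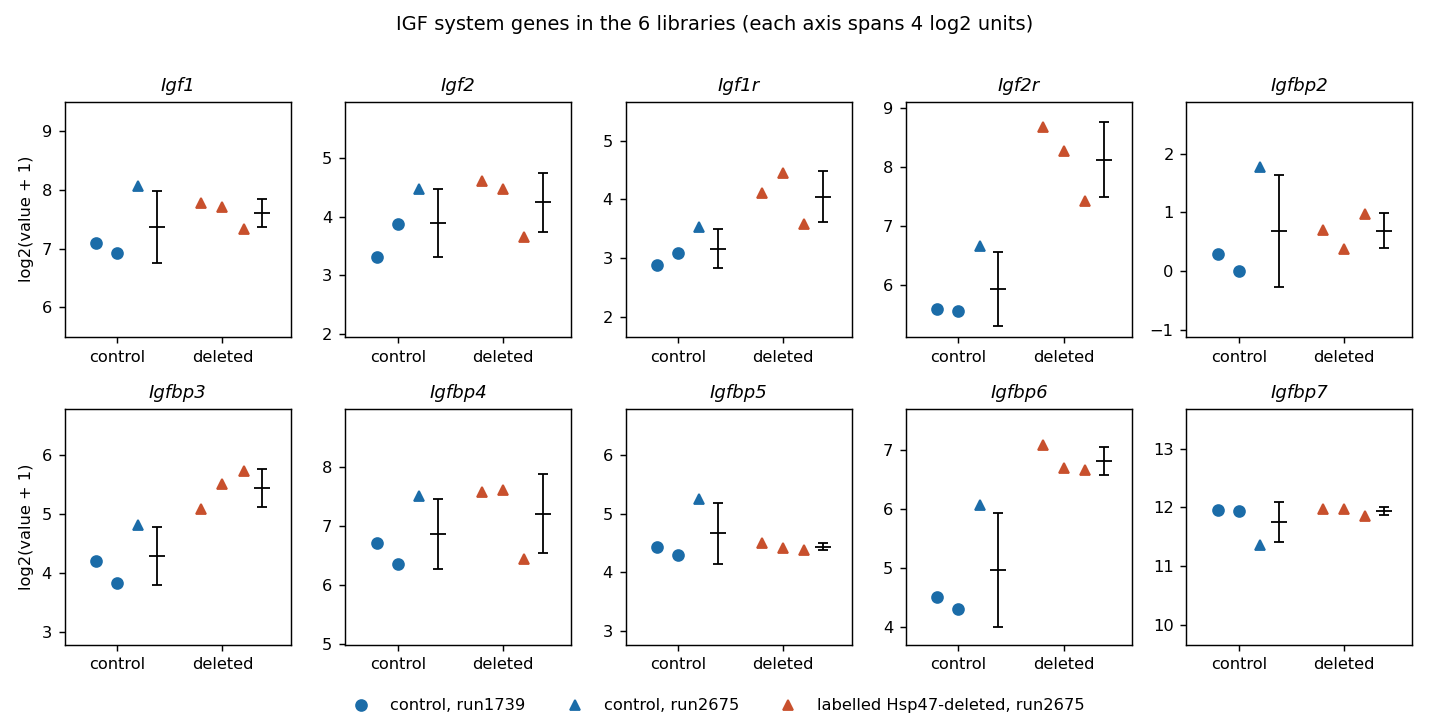
Each panel shows a gene of the IGF system, with log2(value + 1) on the vertical axis and a point per library; circles are libraries of run1739, triangles libraries of run2675, and the black bar with whiskers is the mean ± SD of the 3 libraries of a group. For *Igf2r* the controls lie between 5.56 and 6.66 and the Hsp47-deleted libraries between 7.43 and 8.68, whereas for *Igf1* the highest of the 6 libraries is control replicate 2, at 8.07.

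To give the start regions of the 2 genes with the largest differences, *Igf2r* and *Igfbp6*, the 300 bases from 250 before to 50 after the RefSeq transcript start are shown (GRCm38.p6). The *Igf2r* window is chr17:12769657-12769956, minus strand, and the *Igfbp6* window is chr15:102143936-102144235, plus strand. The GENCODE annotation starts *Igfbp6* at 102144362, past the end of this window. By that annotation the *Igfbp6* window lies wholly upstream of the gene. Capitals mark matches, on either strand, to any of 4 short motifs. The first was the GC box that the factor Sp1 is known to bind, searched as the letters GGGCGG. The second was the TATA box of focused promoters, for which the search used TATAAA. The third was the E-box bound by many basic helix-loop-helix factors, here in the palindromic form CACGTG. The last was the element of the AP-1 factors Fos and Jun, with any base allowed in the middle of TGANTCA.
Igf2r: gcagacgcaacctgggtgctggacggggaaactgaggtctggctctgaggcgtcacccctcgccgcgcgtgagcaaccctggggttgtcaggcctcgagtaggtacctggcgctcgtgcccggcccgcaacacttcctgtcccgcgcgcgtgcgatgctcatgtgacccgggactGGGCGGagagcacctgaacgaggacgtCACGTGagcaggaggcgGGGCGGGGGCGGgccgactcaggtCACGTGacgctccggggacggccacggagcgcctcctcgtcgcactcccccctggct
Igfbp6: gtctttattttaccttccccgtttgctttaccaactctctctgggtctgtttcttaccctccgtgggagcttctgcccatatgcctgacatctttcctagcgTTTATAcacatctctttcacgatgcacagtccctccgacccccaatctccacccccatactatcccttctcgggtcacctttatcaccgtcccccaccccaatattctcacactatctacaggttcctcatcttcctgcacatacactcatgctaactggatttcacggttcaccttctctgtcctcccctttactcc
The *Igf2r* window held 3 GC boxes, 2 of them adjacent and none overlapping, and 2 E-boxes. Its GC content was 70.7%, with 34 CG dinucleotides, where the medians over 32851 promoter windows of this length were 52.7% and 7. The *Igfbp6* window had a GC content of 49.7% and 8 CG dinucleotides, and its only match was TATAAA on the opposite strand. Over all windows, 35.7% held a GC box, 7.2% an E-box, 13.6% a TATA box and 7.8% an AP-1 match. These matches describe letters, not sites in use.

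Among the ligands, *Igf1*, whose product is the main IGF of the adult animal, read 7.10, 6.93 and 8.07 in the controls and 7.78, 7.70 and 7.34 in the Hsp47-deleted libraries. The group means were 7.36 ± 0.61 and 7.61 ± 0.23 (SD, n = 3 each), a difference of 0.24 (SE 0.37, limma adjusted p = 0.769). All 3 Hsp47-deleted libraries lay between the controls of run1739 and control replicate 2, so that the difference was -0.46 with run as a covariate (adjusted p = 0.745). *Igf2*, the fetal ligand, was lower in level, at 3.31, 3.88 and 4.47 in the controls and 4.60, 4.46 and 3.66 in the Hsp47-deleted libraries. Its difference of 0.36 (SE 0.41, adjusted p = 0.689) was smaller than the SD within either group (0.58 and 0.51), and became -0.23 with run as a covariate. Both ligands were detected in every library, and for neither was a difference between the groups detectable. *Igf2* shares 3596 exon bases with a same-strand gene, Gm49394, which is not among the genes deposited. Whether reads of this locus were divided between the pair is uncertain.

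The proportion of the ligands to each other overlapped between the groups. The log2 ratio of *Igf1* to *Igf2* within a library was 3.93, 3.14 and 3.66 in the controls and 3.23, 3.30 and 3.79 in the Hsp47-deleted libraries. The difference was -0.14 (exact two-sided permutation p = 0.8).

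At both receptors, in contrast, the libraries of the groups did not overlap. *Igf1r*, the signalling receptor, read 2.88, 3.09 and 3.53 in the controls and 4.10, 4.45 and 3.59 in the Hsp47-deleted libraries. Its means of 3.17 ± 0.33 and 4.05 ± 0.43 (SD, n = 3 each) differed by 0.88 (SE 0.35, adjusted p = 0.313). The lowest Hsp47-deleted library, replicate 3, was only just above control replicate 2, and the difference was 0.51 with run as a covariate (SE 0.44, adjusted p = 0.767).

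*Igf2r* read 5.59, 5.56 and 6.66 in the controls and 8.68, 8.28 and 7.43 in the Hsp47-deleted libraries, or 47.2, 46.1 and 100.5 against 408.6, 309.5 and 171.7 in the linear unit. Replicate 3 was again the lowest of the Hsp47-deleted libraries and control replicate 2 the highest of the controls. The means of 5.94 ± 0.63 and 8.13 ± 0.64 (SD, n = 3 each) differed by 2.19 (SE 0.45, limma adjusted p = 0.148), a ratio of 4.57 between the geometric means of value + 1. This was rank 133 by p among the 15109 genes, and 233 genes (1.54%), *Igf2r* included, were higher in the Hsp47-deleted group by at least as much. With run as a covariate the difference was 1.46 (SE 0.48, adjusted p = 0.643). *Igf2r* lies on chromosome 17 (12682406 to 12769664, minus strand, GRCm38) with up to 48 exons, and the antisense transcript *Airn* starts within it. The labels do not say that reads were assigned by strand, so reads from introns of *Igf2r* and from *Airn* cannot be told apart, although the annotated exons of the pair share 0 bases. *Airn* read 6.38, 7.01 and 5.99 in the controls and 6.99, 7.10 and 6.76 in the Hsp47-deleted libraries, a difference of 0.49 (SE 0.34, adjusted p = 0.494), with overlap. With run as a covariate the difference of *Airn* was 0.96 (SE 0.37, adjusted p = 0.699), and all 3 Hsp47-deleted libraries lay above control replicate 2.

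The proportion of the receptors to each other did not overlap between the groups either. The log2 ratio of *Igf1r* to *Igf2r* was -2.89, -2.62 and -3.25 in the controls and -4.66, -3.89 and -3.96 in the Hsp47-deleted libraries. It was lower in each of the 3 Hsp47-deleted libraries than in each control, by 1.25 on average (exact two-sided permutation p = 0.1, the smallest possible), and the difference from control replicate 2 was -0.92. A ratio of linear values within a library does not depend on a scaling factor of that library. The log2 ratio of *Igf2r* to its ligand *Igf2*, chosen after the values were seen, was 2.40, 1.75 and 2.25 in the controls and 4.14, 3.88 and 3.88 in the Hsp47-deleted libraries. Here control replicate 2 lay between the other 2 controls, and the differences over all libraries and from control replicate 2 were 1.83 and 1.71.

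**Figure D2:**
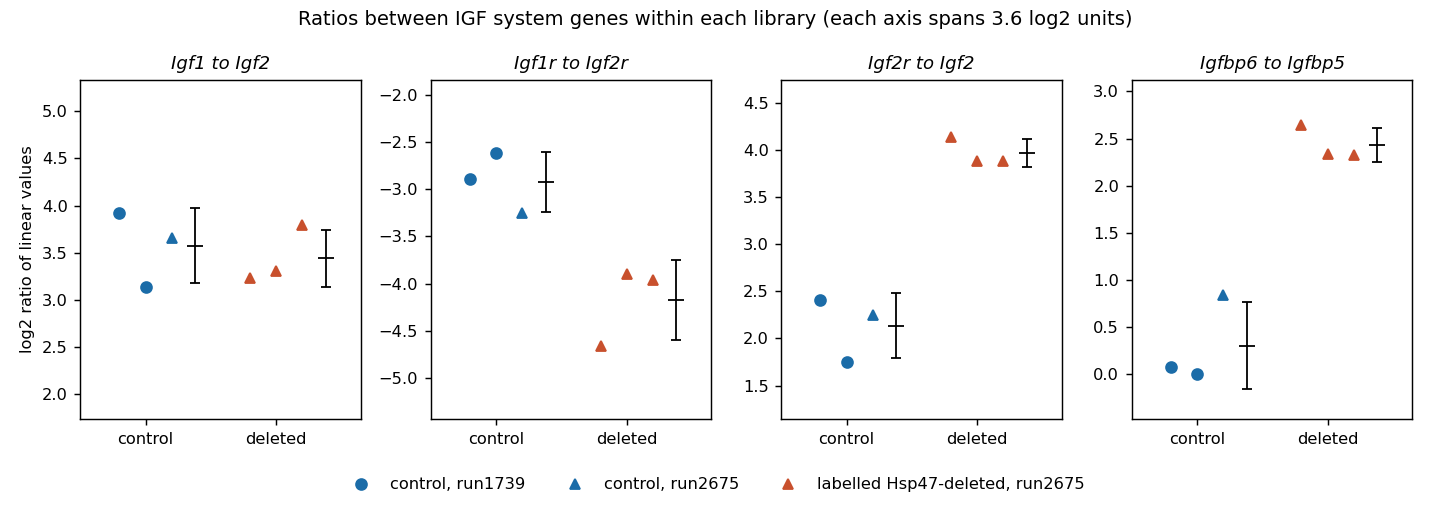
The log2 ratio between 2 genes of the IGF system within each library, with the same symbols for run and group and the mean ± SD of 3 libraries in black. The ratio of *Igf1* to *Igf2* overlaps between the groups, that of *Igf1r* to *Igf2r* is at most -3.89 in the Hsp47-deleted libraries and at least -3.25 in the controls, and those of *Igf2r* to *Igf2* and *Igfbp6* to *Igfbp5* are higher in every Hsp47-deleted library.

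Among the binding proteins, *Igfbp6*, whose product prefers IGF-II over IGF-I, read 4.51, 4.30 and 6.07 in the controls and 7.09, 6.70 and 6.66 in the Hsp47-deleted libraries. The controls spanned more than the Hsp47-deleted libraries did, with control replicate 2 closer to the latter than to the other controls. The means of 4.96 ± 0.97 and 6.82 ± 0.24 (SD, n = 3 each) differed by 1.85 (SE 0.48, limma adjusted p = 0.252), a ratio of 3.61 between the geometric means of value + 1, and by 0.74 with run as a covariate (SE 0.35, adjusted p = 0.732). *Igfbp3*, whose product is the main IGF carrier of plasma, read 4.20, 3.84 and 4.82 in the controls and 5.09, 5.51 and 5.73 in the Hsp47-deleted libraries. Its means of 4.28 ± 0.50 and 5.44 ± 0.32 (SD, n = 3 each) differed by 1.16 (SE 0.36, adjusted p = 0.282), and by 0.62 with run as a covariate. In contrast to the receptors, *Igfbp3* was highest in Hsp47-deleted replicate 3.

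*Igfbp4*, whose product binds both ligands and is cleaved by pappalysin, read 6.70, 6.35 and 7.51 in the controls and 7.58, 7.61 and 6.43 in the Hsp47-deleted libraries. Replicates 1 and 2 of the Hsp47-deleted group matched control replicate 2, while replicate 3 lay among the controls of run1739, and the difference of 0.35 (SE 0.45, limma adjusted p = 0.722) was within the spread and became -0.31 with run as a covariate. *Igfbp5*, a binding protein that also attaches to extracellular matrix, read 4.44, 4.30 and 5.25 in the controls and 4.50, 4.42 and 4.39 in the Hsp47-deleted libraries. The 3 Hsp47-deleted libraries lay close together and level with the controls of run1739, so that the difference was -0.23 over all libraries (SE 0.33, adjusted p = 0.760) and -0.81 with run as a covariate (SE 0.33, adjusted p = 0.716).

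*Igfbp7*, whose product binds IGFs weakly and is found in vascular basement membranes, was the most abundant gene of the system in every library. It read 11.96, 11.94 and 11.36 in the controls and 11.97, 11.98 and 11.85 in the Hsp47-deleted libraries, or 2632 to 3972 against 3694 to 4028 in the linear unit. Only control replicate 2 stood apart, and the difference was 0.18 over all libraries (SE 0.35, adjusted p = 0.820) and 0.57 with run as a covariate. A stretch of 85 exon bases is shared with *Polr2b* on the opposite strand, a gene that read 4.56 to 5.64 in the controls and 5.95 to 6.48 in the Hsp47-deleted libraries. *Igfbp2*, at 0.30, 0 and 1.77 in the controls and 0.71, 0.38 and 0.97 in the Hsp47-deleted libraries, had a mean linear value of 0.756 and did not pass the minimum of 1, so it was not tested.

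Within the binding proteins, *Igfbp7* made up 89.3 to 96.8% of the summed linear values in the controls and 91.3 to 93.5% in the Hsp47-deleted libraries. Such shares compare levels between genes only if the unnamed linear unit is per transcript length, as the TPM values of kallisto are. Of the sum of the other 5 binding proteins, a set chosen after the share of *Igfbp7* was seen, *Igfbp6* took 13.3, 14.3 and 21.1% in the controls and 35.6, 28.3 and 38.7% in the Hsp47-deleted libraries. The share of *Igfbp5* was 12.7, 14.2 and 11.8% against 5.69, 5.62 and 7.72%, and that of *Igfbp4* 63.2, 61.4 and 57.7% against 49.9, 53.7 and 33.1%. None of these 3 shares overlapped between the groups (exact two-sided permutation p = 0.1, the smallest possible). Being parts of the same sum, they are not separate results, since a larger share of *Igfbp6* lowers the others. Of the sum of all 6 binding proteins, *Igfbp6* took a mean of 1.08% in the controls and 2.66% in the Hsp47-deleted libraries, without overlap. On that sum *Igfbp4* (3.55 and 3.64%, permutation p = 0.9) and *Igfbp5* (0.74 and 0.49%, p = 0.7) overlapped. The log2 ratio of *Igfbp6* to *Igfbp5*, chosen after the values were seen, was 0.075, 0.0031 and 0.84 in the controls and 2.64, 2.33 and 2.33 in the Hsp47-deleted libraries. Its difference was 2.13, and 1.59 from control replicate 2. The ratio of *Igfbp3* to *Igfbp4*, also chosen after the values were seen, differed by 0.85. This was mostly through Hsp47-deleted replicate 3 at -0.72, the other 5 libraries lying between -2.74 and -2.13.

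With the same condition on the unit, the order of the mean levels in the controls was *Igfbp7*, *Igf1*, *Igfbp4*, *Igf2r*, *Igfbp6*, *Igfbp5*, *Igfbp3*, *Igf2*, *Igf1r* and *Igfbp2*. Below *Igfbp7*, which exceeded every other gene in all 6 libraries, neighbours from *Igf1* to *Igf1r* were separated by less than the sum of their SDs. In the Hsp47-deleted libraries *Igf2r* came second, at 8.13 ± 0.64, next to *Igf1* at 7.61 ± 0.23, and the pair again differed by less than their summed SDs.

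The shift common to all genes bears on these differences. Over all 6 libraries 74.5% of the genes tested were higher in the Hsp47-deleted group, with a median of 0.355, and the median of the 9 IGF genes was also 0.355 (8 higher, 1 lower). With each library centred on its own median, 4 of the 9 were higher and 5 lower, and both medians were -0.060. After centring *Igf2r* differed by 1.78 (limma adjusted p = 0.333), *Igfbp6* by 1.44 (adjusted p = 0.583), *Igfbp3* by 0.74 and *Igf1r* by 0.46, while *Igf1*, *Igf2*, *Igfbp4* and *Igfbp7* turned negative. At an unadjusted p under 0.05, 2 of 9 IGF genes (*Igf2r* and *Igfbp6*) were then higher, against 4.73% of all genes, and 0 of 9 lower, against 3.48% of all genes.

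With run as a covariate, 0 of the 9 reached an adjusted p under 0.05 (0.331% of all genes did) and 2 reached an unadjusted p under 0.05 (*Igf2r* upward and *Igfbp5* downward), against 6.73% of all genes. All 3 Hsp47-deleted libraries lay above control replicate 2 at *Igf1r*, *Igf2r*, *Igfbp3*, *Igfbp6* and *Igfbp7*, 5 of 9, where 46.7% of all genes did. They lay below it at *Igf1* and *Igfbp5*, 2 of 9, where 11.7% did. The median difference from control replicate 2 was 0.51 for the IGF genes and 0.29 for all genes. With control replicate 2 left out, where label and run coincide, *Igf2r* (2.56, limma adjusted p = 0.00815), *Igfbp6* (2.41, adjusted p = 0.00323) and *Igfbp3* (1.43, adjusted p = 0.0234) passed the threshold, as did 2768 of all genes, and the effect of the label and that of the run cannot be told apart there.

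**Figure D3:**
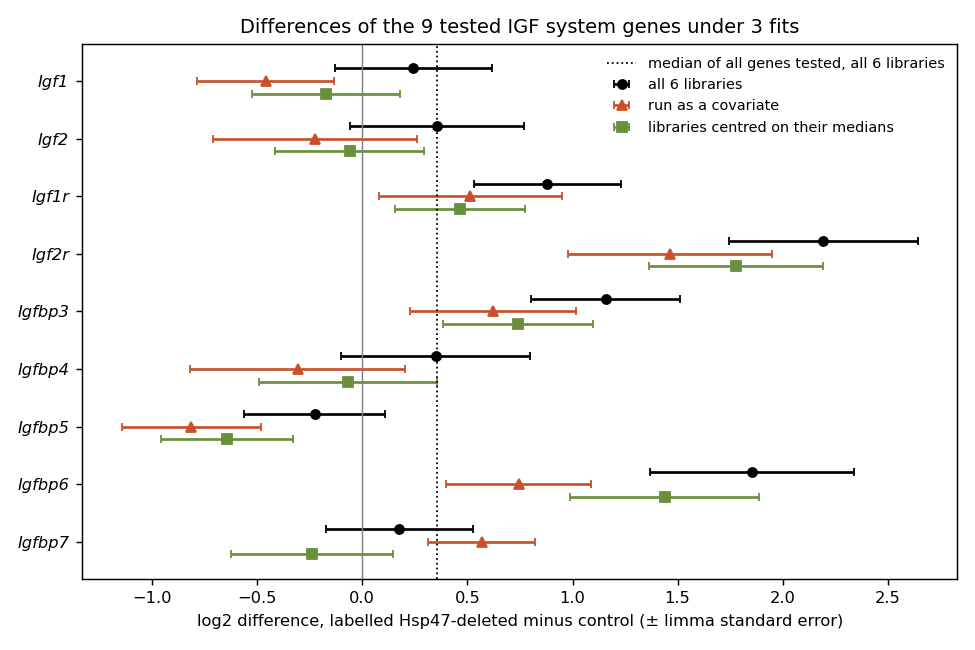
Log2 differences, Hsp47-deleted minus control, with limma standard errors for the 9 tested genes of the IGF system: over all 6 libraries (black circles), with run as a covariate (red triangles) and with libraries centred on their medians (green squares); the dotted line is the median of all genes tested, 0.355. *Igf1r*, *Igf2r*, *Igfbp3* and *Igfbp6* lie above 0 in all 3 fits, *Igfbp5* below 0 in all 3, and *Igf1*, *Igf2*, *Igfbp4* and *Igfbp7* fall on both sides.

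The genes whose values followed *Igf2r* most closely over the 6 libraries were *Espn* (Pearson r = 0.999), *Thbs3* (r = 0.998) and *Daam2* (r = 0.995), of all genes tested. *Thbs3*, a secreted thrombospondin, read 4.59, 4.50 and 5.17 in the controls and 6.06, 5.84 and 5.45 in the Hsp47-deleted libraries, the same order of libraries as *Igf2r* within each group but for its smaller range. *Daam2*, a formin of the Wnt pathway, read 1.72, 1.68 and 2.24 and then 2.98, 2.94 and 2.58, and *Espn*, an actin-bundling protein, 0.47, 0.49 and 0.92 and then 1.69, 1.48 and 1.22. The control values of *Espn* were near the floor of the scale. The 6 libraries come from 2 runs and 2 groups, and the 3 genes were picked from 15109 for their likeness.

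Beyond the core, 83 genes of the wider pathway were in the table and 75 were tested. Of these 75, 13 were higher and 0 lower at an unadjusted p under 0.05, a share near that of all genes (14.5% higher and 0.755% lower). Among them 0 reached an adjusted p under 0.05, and the median difference was 0.44, against 0.355 for all genes. With libraries centred on their medians, the lists of signalling genes, proteases, and FoxO factors and targets had medians of 0.025, 0.029 and 0.0023. The median was 0.44 for other binding and carrier proteins and -0.59 for mRNA-binding proteins and imprinted genes. Among receptors and intracellular signalling genes, 7 of 36 were higher and 0 lower at that level, against 14.5% and 0.755% of all genes. *Irs2*, a docking protein of the insulin and IGF receptors, read 3.09, 3.03 and 4.17 in the controls and 5.01, 5.74 and 5.20 in the Hsp47-deleted libraries. The difference was 1.89 (SE 0.40, limma adjusted p = 0.162), and 1.15 with run as a covariate. *Irs1*, the related docking protein, read 2.46, 2.76 and 3.23 and then 3.80, 4.19 and 3.77 (difference 1.10, SE 0.33, adjusted p = 0.281; 0.69 with run as a covariate). Both were higher in every Hsp47-deleted library than in any control, as was *Insr*, the insulin receptor, at 2.46 to 3.39 in the controls and 3.71 to 4.32 in the Hsp47-deleted libraries (difference 1.12, and 0.55 with run as a covariate). Other genes of the list were also higher without overlap, as were 18.3% of all genes tested. *Socs3*, which encodes a feedback inhibitor of cytokine and insulin signalling, had the largest difference of the list over all 6 libraries, 2.67 (limma adjusted p = 0.309). Its groups overlapped, with control replicate 2 at 6.35 and Hsp47-deleted replicate 3 at 5.17, and the difference was 0.25 with run as a covariate. *Insr* and *Socs3* are named after their values were seen.

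Among the binding protein proteases and their inhibitors, 2 of 12 were higher at an unadjusted p under 0.05, where 14.5% of all genes were, and 0 lower. These were *Plat*, tissue plasminogen activator, at 6.04, 5.88 and 6.25 and then 6.66, 7.12 and 7.10 (difference 0.90, limma adjusted p = 0.282; 0.71 with run as a covariate), and *Adam9*, a membrane metalloprotease, with a difference of 0.74 (adjusted p = 0.306; 0.46 with run as a covariate). Of the other binding and carrier proteins, a list of 8 measured genes that includes 3 CCN matricellular genes, 3 of 5 tested were higher, where 14.5% of all genes were, and 0 lower. *Ctgf* read 9.20, 9.10 and 9.37 and then 10.46, 10.76 and 10.64, a difference of 1.40 (SE 0.29, adjusted p = 0.160) in which control replicate 2 differed little from the other controls, so that it remained 1.25 with run as a covariate. *Cyr61* read 7.06, 6.57 and 8.49 and then 9.31, 9.48 and 8.31, with overlap, and its difference was 1.66 (SE 0.55, adjusted p = 0.283) and 0.55 with run as a covariate. *Nov*, named after its values were seen, lay 1.51 below control replicate 2 but within the range of the controls of run1739 at 2 of 3 Hsp47-deleted libraries.

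Of the mRNA-binding proteins and imprinted genes, the 4 tested were *Igf2bp1*, *Igf2bp2*, *Igf2bp3* and *Plagl1*. Of these, 0 reached an unadjusted p under 0.05, where 14.5% of all genes were higher and 0.755% lower. *Igf2bp3* and *Igf2bp2*, which bind *Igf2* mRNA, differed by -0.77 and -0.33 (limma adjusted p = 0.390 and 0.773), with overlapping groups, and by -0.28 and 0.14 with run as a covariate. *Ins2* was listed at 0 in all 6 libraries. Of the FoxO factors and their target genes, 1 of 18 was higher, where 14.5% of all genes were, and 0 lower. *Foxo3*, a transcription factor held out of the nucleus by AKT, read 4.35, 3.85 and 4.77 and then 5.61, 5.98 and 4.92 (difference 1.18, SE 0.39, adjusted p = 0.283; 0.73 with run as a covariate). *Cdkn1b*, a cell cycle inhibitor and FoxO target, differed by 0.86 (adjusted p = 0.331) and by 0.22 with run as a covariate, with Hsp47-deleted replicate 3 at 3.66 against 3.65 in control replicate 2.

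**Figure D4:**
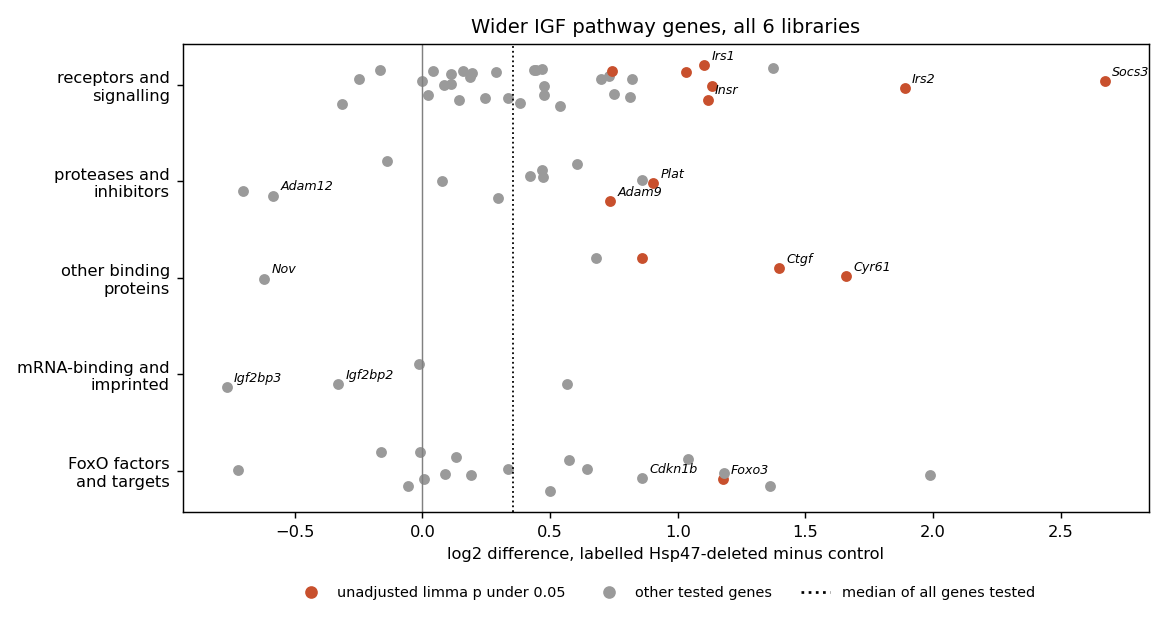
Log2 differences, Hsp47-deleted minus control over all 6 libraries, for the 75 tested genes of the wider IGF pathway in 5 lists, 1 point per gene; red points had an unadjusted limma p under 0.05, and the dotted line is the median of all genes tested. Red points lie only to the right of 0 (13 genes), among them *Irs1*, *Irs2*, *Ctgf* and *Foxo3*, and none of the 75 had an adjusted p under 0.05.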

How the data were processed

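RNA-seq of EGFP+ cells from 3 control and 3 Hsp47-deleted mouse samples was analysed. The authors deposited log2(value + 1) for 28987 genes, 1 column per library, beside group means and their own fold and p-value columns, which were not used. The linear unit is not named; the values hold fractions, sum to 690499 to 855404 per library and are not counts, so depth is unknown and no counting interval is given. The submitters' processing notes name kallisto and mm10, without versions; RNA was amplified before library construction, and the study's methods name AltAnalyze. No pair of libraries was identical.

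Genes with a mean linear value of at least 1 over the 6 libraries were compared with limma 3.58.1 (R 4.3.3, lmFit and eBayes with trend) without a covariate, and p-values were adjusted over all 15109 genes by the Benjamini-Hochberg method. The code was tested on simulated data. Ratios were compared with exact permutation tests (scipy 1.17.1). Since the labels do not say that libraries came from separate animals, p-values measure the spread between these samples, which may be technical. Alternatives were run as a covariate, run2675 alone, a replicate block, filters, pseudocounts of 0.1 and 5, quantile normalization, centring, no trend, and each library left out.

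The text names all 10 IGF genes, any gene of a pathway list with an adjusted p under 0.05 or else the 2 with the smallest p, the 3 genes most like the IGF gene with the smallest p, and *Serpinh1*. The genes, lists and tests were chosen with earlier results of these data known. The lists were written by hand; 3 CCN genes were listed under older and current symbols. Positions are from GENCODE M21 (GRCm38); near-identical transcripts were sought with minimap2 2.31 (95% identity over 80% of length), and promoter windows are from RefSeq, in which 10 of 10 genes matched.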

Additional observations from a re-analysis of the deposited data

How the results depend on the processing

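*Igf2r*, *Igfbp6*, *Igfbp3* and *Igf1r* kept a positive difference under all 16 alternatives, with ranges of 1.46 to 2.56, 0.74 to 2.41, 0.62 to 1.43 and 0.46 to 1.11 on the log2 scale. Leaving out each library in turn gave 0 to 3 IGF genes with an adjusted p under 0.05, 3 being the count without control replicate 2. It gave 2 to 28 wider pathway genes with an unadjusted p under 0.05: 28 without control replicate 2, 2 without Hsp47-deleted replicate 2, 6 without control replicate 3 or 4, and 7 without Hsp47-deleted replicate 1. Over all 15109 genes the unadjusted count was 2302 with all libraries, 5300 without control replicate 2, 1072 without Hsp47-deleted replicate 2, 913 and 1333 without control replicates 3 and 4, and 1280 without Hsp47-deleted replicate 1. Over all genes the count of adjusted calls was 37. It was 2768 without control replicate 2 and 8 to 19 when any other library was left out. The same omissions gave -0.41 to 0.067 for *Igfbp5*, -0.019 to 0.28 for *Igfbp7* and -0.35 to 0.039 for the log2 ratio of *Igf1* to *Igf2*.

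With run as a covariate, 2 IGF genes and 8 pathway genes had an unadjusted p under 0.05, where 6.73% of all genes did. *Igf1*, *Igf2* and *Igfbp4* reversed to -0.46, -0.23 and -0.31. In run2675 alone the same values hold, and the ratio of *Igfbp6* to *Igfbp5* was 1.59. There 7 IGF genes did not overlap with the single control. Of all genes, 46.7% lay wholly above that control and 11.7% wholly below it. Quantile normalization gave 2 IGF and 8 pathway genes, where 1265 of all 15109 genes passed. *Igf1* was then at -0.19, *Igf2* at -0.034 and *Igfbp4* at -0.012. Centring gave 2 IGF genes, where 1240 of all 15109 genes passed. The median was then -0.060, with *Igf1* at -0.17, *Igf2* at -0.060, *Igfbp4* at -0.065 and *Igfbp7* at -0.24. The difference in the share of *Igfbp6* was 1.58 percentage points of all binding proteins and 18.0 with *Igfbp7* left out of the sum, by construction. Beyond that share, the cause of these differences was not tested.

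With the replicate number as a block, *Igf1* was -0.059 and *Igfbp4* -0.086, and 0 of all genes were called at an adjusted p under 0.05 (1545 at an unadjusted p). Control and Hsp47-deleted libraries share only numbers 2 and 3, and number 3 spans the runs. Deviations of same-numbered libraries correlated at 0.16 and 0.23, and those of differently numbered libraries at -0.42 to 0.38. The labels do not say that equal numbers pair libraries, and these correlations cannot decide it. The numbers are used here only to name libraries. All-gene counts of adjusted calls were 16 with a pseudocount of 0.1, 17 with quantile normalization and 18 with centring.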
